A study of Trachemys scripta with 4 samples.

Results

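Macrophage and leukocyte genes were followed in embryonic peripheral nerve of the turtle *Trachemys scripta*. The set is a list of gene symbols and holds 10 genes: the ligands CSF1 and IL34, their receptor CSF1R, the transcription factors SPI1 and IRF8, the leukocyte genes PTPRC and LAPTM5, and CD74, MPEG1 and CTSS. Of these, 8 were found among the 15289 genes of the table and all 8 were kept by the filter on low values (at least 1 TPM in at least 2 columns), which left 15100 genes. PTPRC and CTSS were not analysed here. TPM, the unit of the levels below, is the read number per length of transcript, scaled so that each column adds up to 1000000.

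Macrophages are phagocytes that settle in tissues during embryonic life. In mammals and birds their survival and growth depend on CSF1R, a receptor tyrosine kinase that binds either of the secreted ligands CSF1 and IL34. The ligands are made by surrounding cells such as fibroblasts, endothelium, neurons and epithelium, so their transcripts do not mark leukocytes. SPI1 encodes PU.1, the factor that sets up the myeloid lineage, and IRF8 partners with it in monocytes, dendritic cells and macrophages. Resident macrophages lie between the axons of the mammalian nerve, where they clear debris. The roles given here for each gene come from mammals.

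Polyadenylated RNA was sequenced from dissected parts of the brachial and sacral plexus of 1 embryo at st.21, when it showed colour and looked like a developed turtle, and of 1 embryo at st.19, when it did not yet. The eggs of all groups came from oxytocin-injected wild-caught females and were kept at 28 °C in moist vermiculite. No embryo was treated or carried a known mutation. The nerves were small, so surrounding tissue may have been taken with them, and the tissue of several nerves of an embryo was combined. Each stage is present as replicate 1 and replicate 2. The st.21 columns held 2229177 and 2129599 reads on genes, against 4353821 and 4241655 in the st.19 columns. All 8 Schwann cell genes of the marker list were detected in every column.

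Within a stage, replicate 1 and replicate 2 were more alike in genes of low and middle read number than sampling noise allows for separate libraries. Over genes with 5 to 500 reads the chi-square statistic was 0.330 per gene at st.21 (12949 genes) and 0.433 at st.19 (12734 genes), where independent libraries give a value near 1. Over these genes the columns differed by less than the sampling noise. The library totals left out a ribosomal RNA gene, LOC117869916, which took 1.26% and 4.15% of reads in the st.19 columns and so did differ. The columns of a stage were counted as 1 sample, so no test between the stages was possible and no p-value is given. The labels call them R1 and R2, and whether they are separate libraries or files of 1 library, such as the 2 mates of paired-end reads aligned separately, was not tested. Differences below are descriptions of these libraries with no replicate check. The 95% exact binomial intervals (Clopper-Pearson) come from the reads of replicate 1 of each stage and cover counting error only. In a bulk sample, fewer cells of a type and less RNA per cell cannot be told apart.

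The macrophage and leukocyte genes had higher deposited values at st.21, though not all beyond counting error. The counting interval of replicate 1 lay above 0 in 6 of the 8 genes on the deposited scale. With the reads scaled to all reads on genes it did so in 4. The share of all genes with such an interval was not computed, so these 2 counts have no background to be read against. Of the 8 genes, 5 had a log2 fold change above 1 (CD74, MPEG1, SPI1, CSF1 and LAPTM5), against 17.3% of all genes analysed, and 0 of 8 were below -1, against 9.68% of all genes. All 8 were above 0, against 53.1% of all genes. Their median log2 fold change was 1.48, and that of all genes was 0.06. For the 6 genes without the ligands the median was 1.82. It lies between LAPTM5 (1.19) and SPI1 (2.46), and SPI1 had 0 reads at st.19, so this median depends on a value with no reads behind it there. In all 8 genes the st.21 columns lay above both st.19 columns on the deposited scale, as they did for 38.9% of all genes. SPI1 passed the filter only through its st.21 columns, and MPEG1 reached 1 TPM in 1 of the 2 st.19 columns. Without st.19 replicate 1, CSF1R (1.18), IL34 (1.27) and IRF8 (1.04) also passed 1, and without st.21 replicate 2 IL34 did so (1.20).

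The genes were represented by few reads. Together the 8 genes held 370 and 341 reads at st.21. In RPM (reads per 1000000 reads on genes) they summed to 166 and 160 at st.21, against 48.7 and 48.8 RPM at st.19. Without the ligands, the sum of the other 6 genes was 109 and 107 RPM at st.21 and 27.3 and 27.8 RPM at st.19. Most of this sum at st.21 came from CD74 alone, with 72.2 and 71.4 RPM at st.21 and 11.5 and 11.6 RPM at st.19. The 2 ligands summed to 57.4 and 53.1 RPM at st.21 and to 21.4 and 21.0 RPM at st.19. Each of these sums was higher in both st.21 columns than in both st.19 columns. The columns of a stage were not counted as separate samples, so their closeness gives no measure of spread within a stage. The lack of overlap therefore says nothing beyond the size of the difference. How often sums of other genes differ in this way was not computed.

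**Figure D1:**
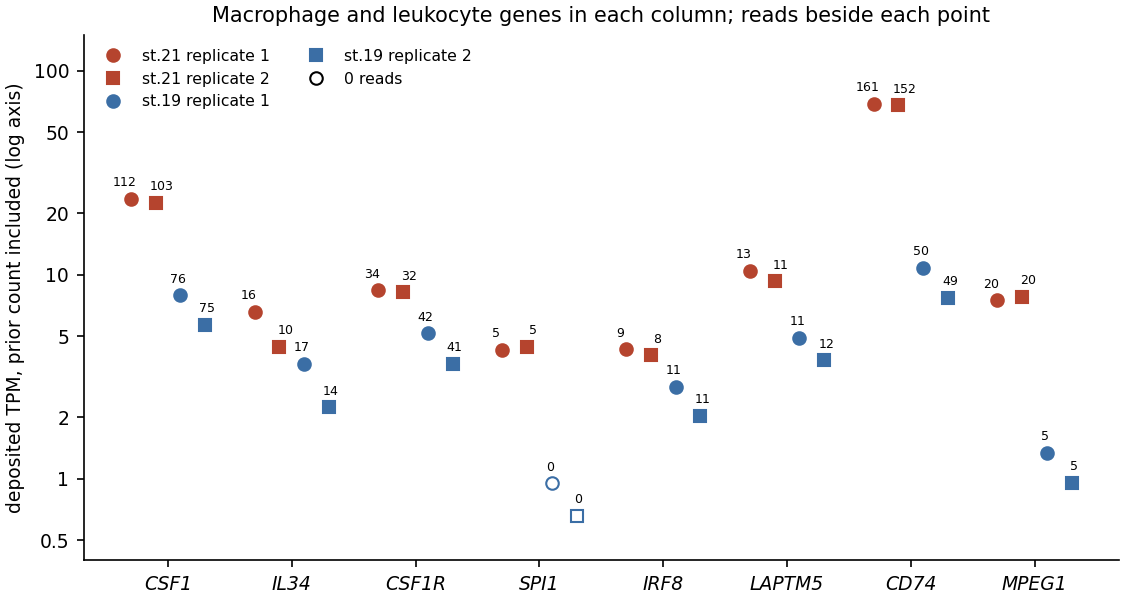
Deposited TPM (log axis, with the prior count the authors added) of the 8 macrophage and leukocyte genes in the st.21 columns (red) and the st.19 columns (blue), replicate 1 as circles and replicate 2 as squares. The whole reads behind each value stand beside its point, and open symbols mark 0 reads. Every st.21 point lies above both st.19 points of the same gene, with CD74 at 161 and 152 reads at st.21 against 50 and 49 at st.19, and SPI1 at 5 and 5 reads against 0 and 0.

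CSF1, the colony-stimulating factor that macrophages need for survival, was the more abundant ligand. It lies on chromosome 4 from 130490659 to 130510163 of the CAS_Tse_1.0 assembly and had 112 and 103 reads at st.21, or 23.6 and 22.6 TPM, against 76 and 75 reads at st.19, or 7.94 and 5.69 TPM. The log2 fold change was 1.78, a 3.43-fold difference. On the reads of replicate 1 the log2 ratio was 1.61, with an interval of 1.18 to 2.05. The change of CSF1 was larger than that of 94.9% of all genes.

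IL34, the second ligand, which binds CSF1R without resembling CSF1 in sequence, lies on chromosome 13 from 41173981 to 41208925. It had 16 and 10 reads at st.21, or 6.58 and 4.43 TPM, against 17 and 14 reads at st.19, or 3.66 and 2.24 TPM. Its replicate columns were the least alike of the 8 genes, apart by 0.57 at st.21 and by 0.71 at st.19 on the log2 scale, and the lower st.21 column was only slightly above the higher st.19 column. The log2 fold change was 0.91. The counting interval of replicate 1 ran from -0.12 to 2.04 and included 0, so a difference in IL34 was not detectable at this depth. The ratio of CSF1 to IL34, per length, was 3.83 and 5.63 at st.21 and 2.44 and 2.93 at st.19, and the interval of its change included 0 (log2 0.65, -0.53 to 1.82).

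CSF1R, the receptor of both ligands and a defining macrophage gene, lies on chromosome 8 from 6816189 to 6846172. It had 34 and 32 reads at st.21, or 8.40 and 8.21 TPM, against 42 and 41 reads at st.19, or 5.16 and 3.66 TPM. The log2 fold change was 0.93, just under the threshold, and larger than that of 81.1% of all genes. The counting interval of replicate 1 ran from 0.05 to 1.43 on the deposited scale. With the reads scaled to all reads on genes it ran from -0.04 to 1.35 and included 0.

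The 2 transcription factors had the fewest reads over the 4 columns together. SPI1, on chromosome 4 from 71003836 to 71034644, had 5 reads in each st.21 column and 0 reads in each st.19 column, although the st.19 columns were the deeper ones. Against a floor of 3 reads per library at st.19, its st.21 reads stood 3.26-fold higher in RPM in replicate 1. In replicate 2 they stood 3.32-fold higher. With TPM rescaled without the rRNA genes these folds were 2.81 and 2.76. On the deposited TPM scale, where rRNA genes are part of the total, they were 3.45 and 4.93. Its deposited values at st.19, 0.953 and 0.661 TPM, consist of the prior count, so the fitted log2 fold change of 2.46 is no bound. The floor takes the st.21 reads as exact. The exact interval of the replicate 1 log2 ratio, which covers the counting error of both stages, began at 0.92, and at 0.84 in RPM. IRF8, on chromosome 13 from 8104432 to 8124579, had 9 and 8 reads at st.21, or 4.33 and 4.03 TPM, against 11 and 11 reads at st.19, or 2.83 and 2.04 TPM. Its log2 fold change was 0.80, and its interval, from -0.69 to 2.17, included 0.

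LAPTM5, a lysosomal membrane protein of leukocytes, lies on chromosome 20 from 14288759 to 14322146. It had 13 and 11 reads at st.21, or 10.5 and 9.31 TPM, against 11 and 12 reads at st.19, or 4.93 and 3.81 TPM. The log2 fold change of 1.19 was the smallest of those above the threshold. The counting interval of replicate 1 ran from 0.02 to 2.59, and from -0.07 to 2.51 with the reads scaled to all reads on genes.

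Among the genes with reads at both stages, CD74 and MPEG1 showed the largest changes. CD74 is the invariant chain, which escorts MHC class II molecules to the compartment where they load peptide. It lies on chromosome 8 from 6451757 to 6464076 and had 161 and 152 reads at st.21, or 69.0 and 67.6 TPM, against 50 and 49 reads at st.19, or 10.8 and 7.72 TPM. The log2 fold change was 2.90, a 7.46-fold difference and larger than that of 99.1% of all genes. The interval of replicate 1 ran from 2.27 to 3.23. MPEG1 encodes perforin-2, a pore-forming protein of macrophages, and lies on chromosome 2 from 163923245 to 163929742. It had 20 and 20 reads at st.21, or 7.52 and 7.79 TPM, against 5 and 5 reads at st.19, or 1.34 and 0.961 TPM. Its log2 fold change was 2.75, and with 5 reads per st.19 column its interval was wide, from 1.59 to 4.82.

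**Figure D2:**
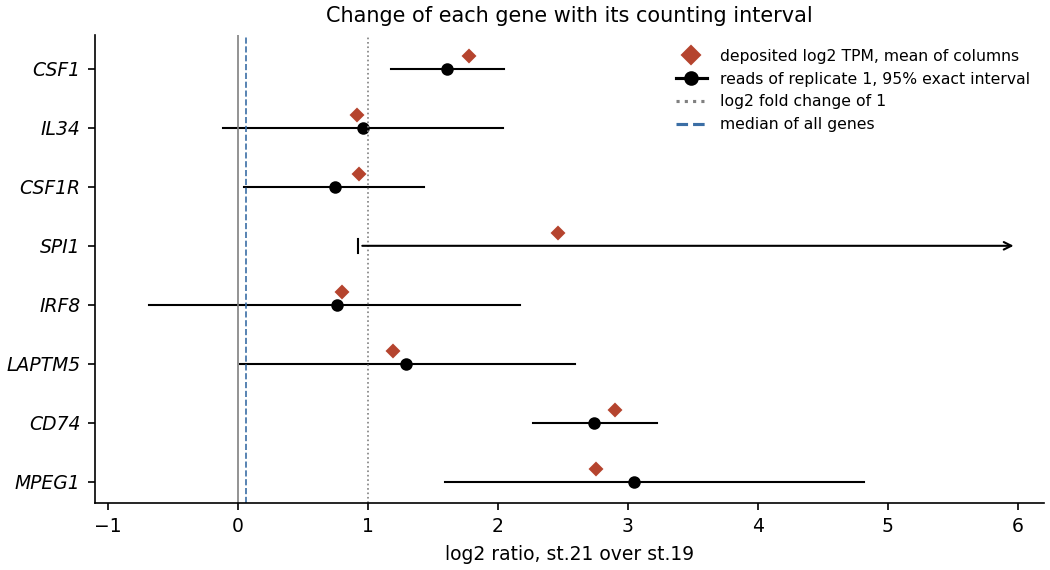
Log2 ratio of st.21 over st.19 for each gene. Red diamonds are the mean difference of the deposited log2 TPM, black points are the ratio of the replicate 1 reads with its 95% exact interval, the dotted line is a log2 fold change of 1 and the dashed line the median of all genes (0.06). The intervals of CD74, MPEG1, CSF1 and SPI1 lie well above 0, SPI1 with no upper end as it had 0 reads at st.19. Those of CSF1R and LAPTM5 start at 0.05 and 0.02, and those of IRF8 and IL34 include 0.

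The order of the levels changed below CD74 and CSF1. In replicate 1 of st.21 the order per length was CD74, CSF1, LAPTM5, CSF1R, MPEG1, IL34, IRF8 and SPI1. CD74 was 2.93-fold above CSF1 (interval 2.29 to 3.76), and CSF1 was 2.44-fold above LAPTM5 (1.37 to 4.73). From LAPTM5 downwards, no neighbours in the order differed beyond their counting error. In replicate 1 of st.19 the order was CD74, CSF1, CSF1R, LAPTM5, IL34, IRF8, MPEG1 and SPI1. There CD74 and CSF1 did not differ beyond counting error (1.34-fold, 0.92 to 1.94), and CSF1 was 1.58-fold above CSF1R (1.07 to 2.37). None of the neighbours below CSF1R differed beyond it. MPEG1 stood above IL34 and IRF8 at st.21 and below them at st.19. CD74 lay at the 85.0 and 84.8 percentile of the levels of all genes at st.21 and at the 32.3 and 33.2 percentile at st.19.

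The scaling of the columns moved with the stages. A ribosomal RNA gene, LOC117869916, took 0.145% and 0.317% of TPM at st.21 and 18.9% and 44.2% at st.19, which lowers the TPM of every other gene at st.19. The median over genes of the log2 difference between replicate 1 and replicate 2 was 0.53 at st.19, and less than 0.01 in size at st.21. With TPM rescaled to the protein-coding genes, the median of all genes moved by -0.53, to -0.47, with 1045 genes above 1 and 3590 below -1 in place of 2605 and 1461. Without the rRNA genes it moved by -0.58, with 1069 above and 4181 below. Quantile normalization moved it by -0.13, with 2060 above and 1843 below. Under the first 2 of these totals 4 of the 8 genes were above 1, LAPTM5 no longer among them at 0.66 and 0.62, against 7.27% and 7.02% of all genes, while the log2 fold change remained 0.41 and 0.37 in CSF1R and 0.27 and 0.23 in IRF8. The counting intervals of replicate 1 lay above 0 in 6 of the 8 genes on the deposited scale. Under these totals and in RPM they did so in 4 (CD74, MPEG1, SPI1 and CSF1). No share over all genes was computed beside these counts.

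On the deposited scale and relative to the median of all genes, CD74 lay at 2.84 on the log2 scale, MPEG1 at 2.69, SPI1 at 2.40, CSF1 at 1.72, LAPTM5 at 1.13, CSF1R at 0.87, IL34 at 0.85 and IRF8 at 0.74. Most of the other scalings shift all genes of a column alike, so by construction these differences hardly change under them, and they say nothing of how stable the values are.

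**Figure D3:**
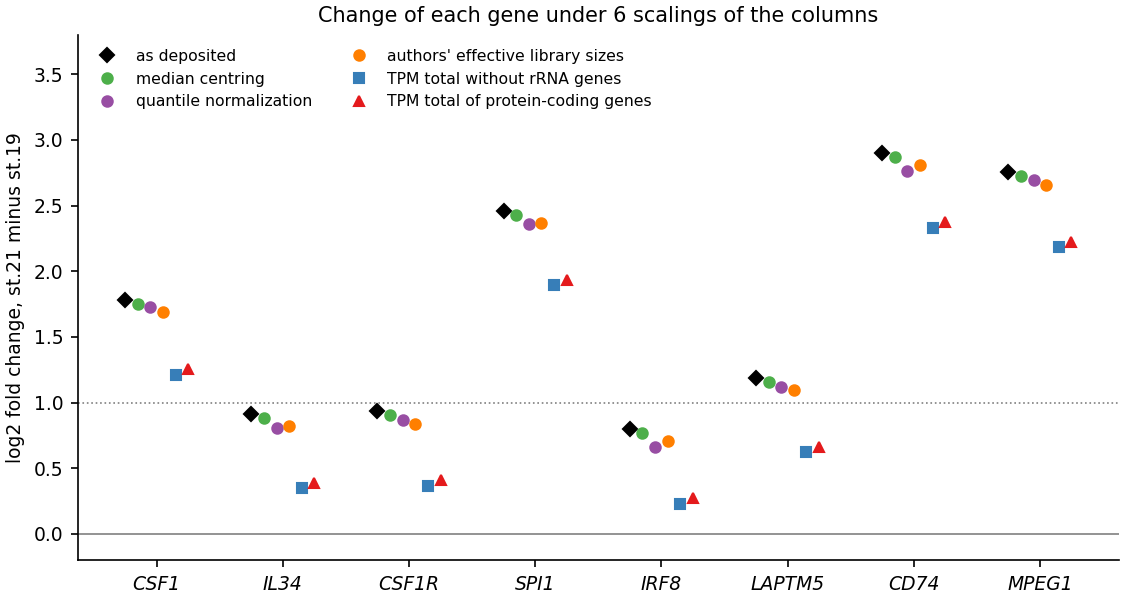
Log2 fold change of the 8 genes, st.21 minus st.19, with the values as deposited and under 5 other scalings of the columns. The solid line is 0 and the dotted line is 1. All points lie above 0, and the totals without rRNA genes and of protein-coding genes lie lowest, with CD74 at 2.33 and 2.37 against 2.90 as deposited and LAPTM5 at 0.62 and 0.66 against 1.19.

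Ratios within a column do not depend on any scaling, and were therefore taken for each gene against CSF1R. The 6 intervals are not adjusted for their number. CD74 stood at 8.45 and 8.47 times the level of CSF1R per length at st.21 and at 2.12 and 2.13 times at st.19, a log2 change of the ratio of 1.99 (1.14 to 2.84). MPEG1 stood at 0.87 and 0.93 times CSF1R at st.21 and at 0.18 and 0.18 times at st.19, a change of 2.30 (0.64 to 4.20). In these libraries both genes changed more than CSF1R, beyond counting error. CSF1 stood at 2.88 and 2.82 times its receptor at st.21 and at 1.58 and 1.60 times at st.19, a change of 0.86 (0.04 to 1.69). The ratios of LAPTM5 (0.55, -0.93 to 2.03), IL34 (0.22, -1.08 to 1.51) and IRF8 (0.02, -1.61 to 1.61) had intervals that included 0, and those of IL34 and IRF8 allow changes of more than 2-fold either way. CD74 and MPEG1 did not differ from each other beyond counting error (-0.31 for CD74 over MPEG1, -2.15 to 1.24).

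**Figure D4:**
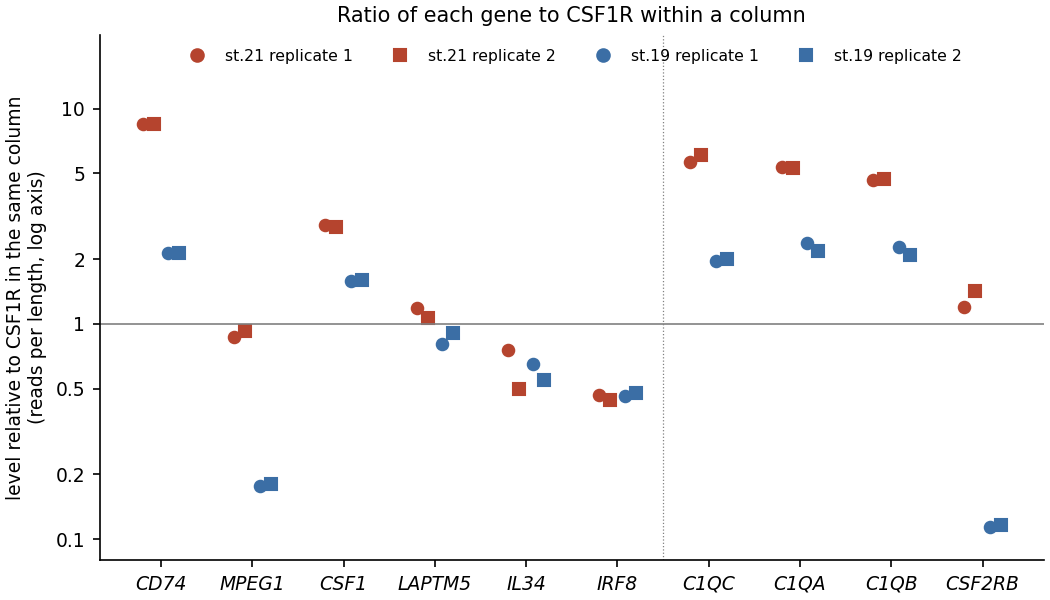
Level of each gene relative to CSF1R in the same column (reads per length, log axis), st.21 in red and st.19 in blue, replicate 1 as circles and replicate 2 as squares. Left of the dotted line are 6 of the macrophage and leukocyte genes, and right of it 4 other macrophage genes. CD74 and MPEG1 lie far above their st.19 ratios, CSF1 less so, and IRF8 lies between 0.44 and 0.48 in all 4 columns.

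Other genes that mark or serve macrophages were taken from a list of 40, of which 15 were in the table. Of these, 8 were above 1 and 0 below -1 on the deposited scale, with a median of 1.04. CX3CR1 and SIGLEC1, counted among the 8, reached 1 TPM in the st.21 columns only, so they passed the filter through st.21. The protein-coding total, which moved the median of all genes by -0.53, lowers these values too. The shares over all genes, 17.3% above 1 and 9.68% below -1, are the background for this and the lists below. In those lists MYO1F, INPP5D, NLRC5, IL7R, MPO and ITGA2B, all above 1, also passed the filter through st.21 only. BATF3 and MARCHF1, both below -1, passed it through st.19 only. The counts of these lists therefore depend in part on the filter. The counting interval of replicate 1 lay above 0 in 7 of the 15 genes on the deposited scale, a count for which no share over all genes was computed. The summed reads of the 15 genes were 254 and 258 RPM at st.21 and 134 and 128 RPM at st.19. The complement C1q subunits, which macrophages secrete, were higher at st.21. C1QC had 68 and 69 reads at st.21 against 29 and 29 at st.19 (2.44 on the log2 scale), and C1QA had 87 and 81 reads against 48 and 43 (2.13). The third subunit, C1QB, named after its values were seen, had 81 and 77 reads against 49 and 44 (2.01). CSF2RB, the shared beta chain of the receptors for GM-CSF and related cytokines, had 17 and 19 reads at st.21 against 2 and 2 at st.19 (3.31). Relative to CSF1R, the log2 change was 1.53 for C1QC (0.56 to 2.51), 1.16 for C1QA (0.28 to 2.05), 1.03 for C1QB (0.14 to 1.92) and 3.39 for CSF2RB (1.14 to 6.61). These intervals, like those of CD74 and MPEG1, lie above 0. The list also held 2 genes below 0, and P2RY12, a purinergic receptor of mammalian microglia, was the lowest with 6 and 6 reads at st.21 against 27 and 28 at st.19 (-0.76). P2RY12 was named after its values were seen, and its interval, from -2.69 to 0.19, included 0. AIF1, CD68 and CD163, common macrophage markers, were not analysed here.

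Genes shared by most leukocytes changed in both directions. Of 28 listed, 14 were analysed, 4 were above 1 and 1 below -1, with a median of 0.39. RAC2, a small GTPase of blood cells, had 22 and 21 reads at st.21 against 10 and 8 at st.19 (2.26), and ITGB2, the beta chain of the leukocyte integrins, had 46 and 42 against 23 and 20 (2.21). HCLS1, a cortactin homologue of blood cells, had 7 and 8 reads against 7 and 7 (1.14), and its interval, from -0.69 to 2.79, included 0. In all, 6 of the 14 were below 0. CXCR4, named after its values were seen, was the gene below -1, with 5 and 10 reads against 41 and 40 (-1.07). Its interval ran from -3.68 to -0.65. The sum of the list did not follow that of the macrophage genes, with 170 and 173 RPM at st.21 and 172 and 171 RPM at st.19. The median was -0.14 with the protein-coding total, where that of all genes was -0.47.

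Genes that carry or limit the CSF1R signal showed no common direction. Of 25 listed, 21 were analysed, 3 were above 1 and 0 below -1, and the median of 0.03 was near that of all genes. INPP5D, the phosphatase SHIP1 that dampens PI3-kinase signalling, had 8 and 8 reads at st.21 against 2 and 2 at st.19 (2.25). FGR, a Src family kinase, had 320 and 323 reads against 380 and 372 (1.08). DOK3, an inhibitory adaptor, had 31 and 23 reads against 33 and 19 (1.31), and it overlaps DDX41 in the annotation, so its reads may belong to either gene. PTPRZ1, a receptor phosphatase that also binds IL34 and was named after its values were seen, was lower at st.21, with 201 and 198 reads against 911 and 897 (-0.87).

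Among other transcription factors of the myeloid and neighbouring lineages, 4 of the 15 analysed were above 1 and 2 below -1, with a median of 0.30. IRF5, which drives inflammatory genes in macrophages, had 33 and 32 reads at st.21 against 26 and 28 at st.19 (1.49). NFE2, a factor of megakaryocytes and red cells, had 7 and 7 reads against 3 and 3 (1.81). BATF3, a factor of dendritic cells, had 1 and 1 reads against 9 and 12 (-1.28), with an interval that included 0. The median was -0.22 with the protein-coding total, where that of all genes was -0.47.

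Antigen presentation genes were the nearest in function to CD74. Of 19 listed, 12 were analysed, 7 were above 1, 1 was below -1 and 5 in all were below 0, with a median of 1.36. The list changed with the filter, as at a minimum of 5 TPM 4 genes were above 1 and the median was -0.014. CD40, the costimulatory receptor of antigen-presenting cells, had 19 and 17 reads at st.21 against 4 and 5 at st.19 (2.70), and IFI30, the thiol reductase that opens disulfide bonds in engulfed antigen, had 38 and 40 against 18 and 16 (2.33). Their log2 changes relative to CSF1R were 2.55 (0.76 to 4.67) and 1.38 (0.26 to 2.52). MARCHF1, a ubiquitin ligase that removes MHC class II from the surface, went the other way with 0 and 0 reads at st.21 against 29 and 32 at st.19. Against a floor of 3 reads per library at st.21, its st.19 reads stood 4.95-fold higher in RPM in replicate 1. In replicate 2 they stood 5.36-fold higher, and on the deposited TPM scale these folds were 4.67 and 3.60. The floor takes the st.19 reads as exact, and the upper end of the log2 interval of replicate 1 was -1.83. MARCHF1 overlaps TMA16 in the annotation.

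Cathepsins and other lysosomal genes, which most cells express, had a median nearer to that of all genes. Of the 18 analysed, 5 were above 1 and 0 below -1, with a median of 0.36. With the protein-coding total the median became -0.17, where that of all genes was -0.47. GRN, the progranulin gene, had 168 and 170 TPM at st.21 against 65.9 and 46.4 TPM at st.19 (1.61). CTSH (1.57), a cathepsin, and NPC2 (1.51), a cholesterol carrier of the lysosome, were also above 1. Of 13 genes of osteoclasts, the bone-resorbing cells that need CSF1R, 4 were in the table and all 4 were above 1. MMP9, a gelatinase, had 38 and 32 reads at st.21 against 14 and 13 at st.19 (2.46). CALCR, the calcitonin receptor, had 8 and 10 reads against 6 and 5 (1.60), with an interval that included 0, and NFATC1, a transcription factor also found in other cells, had 155 and 152 against 177 and 157 (1.18).

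Few markers of other blood cell types were in the table. Of 19 T and natural killer cell markers, 4 were in the table, with a summed level of 5.38 and 6.57 RPM at st.21 and 6.43 and 5.66 RPM at st.19. Of these, 1 was above 1 and 1 below -1, GATA3 being the lower with 1 and 1 reads against 11 and 10 (-1.28, with an interval that included 0). CD3D, CD3E and CD3G were not analysed here. Of 14 B cell markers only EBF1 was in the table, a factor that other cells use as well, with 196 and 187 reads at st.21 against 1330 and 1263 at st.19 (-1.45). Of 15 granulocyte and mast cell markers 3 were in the table, and KIT, a receptor also carried by melanoblasts, had 21 and 18 reads against 241 and 238 (-2.24). Of 13 thrombocyte markers 5 were in the table, 2 above 1 and 1 below -1. THBS1, thrombospondin, had 297 and 289 reads against 2343 and 2281 (-1.67), and F13A1, the factor XIII subunit that macrophages also make, had 30 and 30 against 30 and 28 (1.28). Of 17 erythroid markers 7 were in the table, 3 above 1 and 0 below -1, with a summed level of 224 and 223 RPM at st.21 and 250 and 245 RPM at st.19. ALAS2, the heme synthesis enzyme of red cells, had 26 and 21 reads against 8 and 8 (2.49), and SLC4A1, their anion exchanger, had 71 and 70 against 38 and 41 (2.07). The part of blood cells in the result was not tested.

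The summed levels of skeletal muscle, fibroblast and endothelial markers were also higher at st.21, and most neuron markers were lower at st.21. All 9 skeletal muscle markers in the table, of 12 listed, were above 1, with a summed level of 1623 and 1622 RPM at st.21 and 55.6 and 50.9 RPM at st.19. Among them ACTA1, skeletal muscle actin, had 1325 and 1244 reads at st.21 against 55 and 50 reads at st.19 (5.85). Of 12 fibroblast and perineurium markers 6 were above 1, with 64498 and 64188 RPM at st.21 and 14497 and 13887 RPM at st.19. DPT (3.31), COL3A1 (2.73) and COL1A1 (2.60) were the highest. Collagens made up most of the sum, with COL1A1 at 35569 and 34952 RPM at st.21 and 7493 and 7078 RPM at st.19. COL3A1 stood at 16942 and 17148 RPM at st.21 and 3268 and 3176 RPM at st.19. PDGFRA (0.14) and FBLN1 (-0.10), named after their values were seen, changed little. Of 12 endothelial markers 7 were above 1, with 528 and 543 RPM at st.21 and 299 and 298 RPM at st.19, and EGFL7 (1.96) and ESAM (1.85) were the highest. Of 8 Schwann cell markers 2 were above 1, with 4468 and 4301 RPM at st.21 and 3931 and 3558 RPM at st.19. Of the 11 neuron markers analysed 5 were below -1, with 4803 and 4933 RPM at st.21 and 7409 and 7211 RPM at st.19, and GRIA2, a glutamate receptor subunit, was the lowest (-2.10). No defining marker of these lists was at 0 reads at st.21. Their part in the change of the macrophage and leukocyte genes was not tested. Relative to CSF1R, COL1A1 changed by 1.59 (0.90 to 2.28) and the endothelial gene PECAM1 by 0.05, with an interval that included 0.

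**Figure D5:**
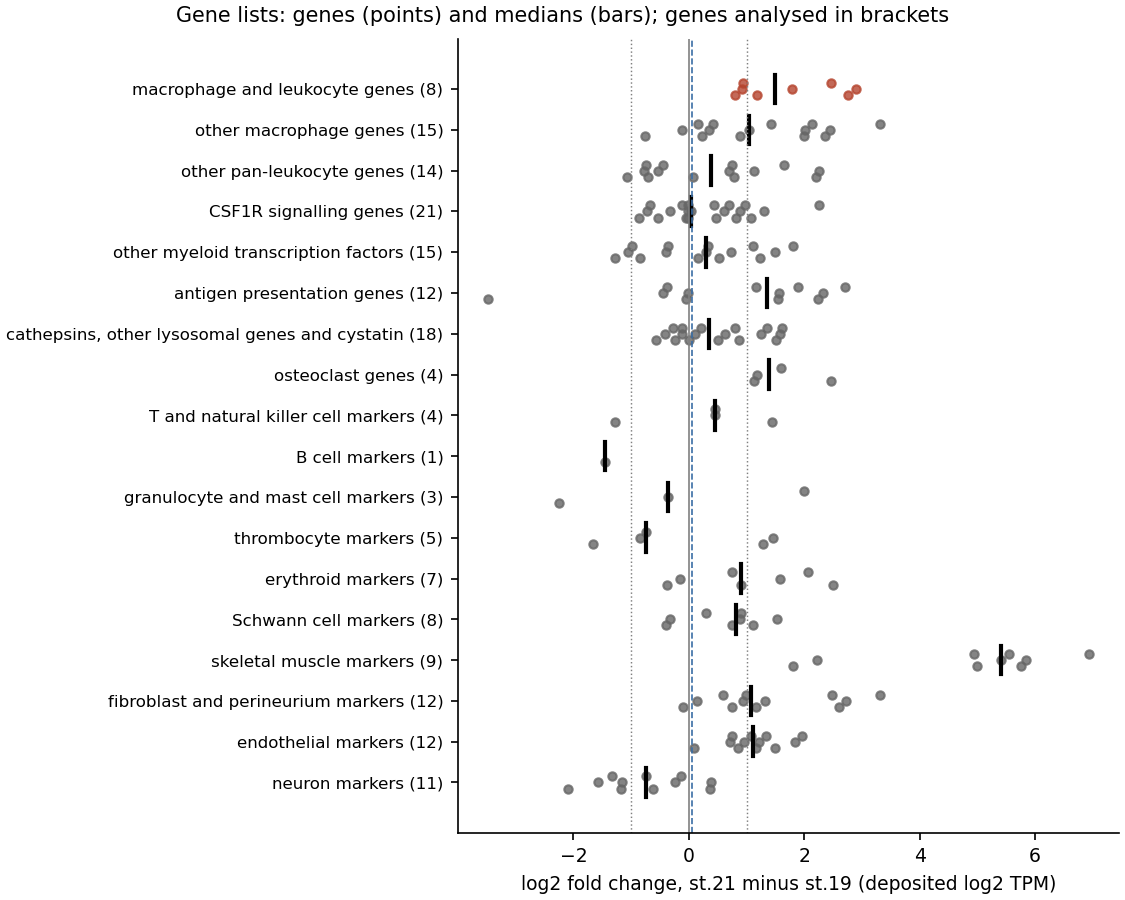
Log2 fold change of every analysed gene of the lists (points, st.21 minus st.19, deposited log2 TPM) with the list medians (bars) and the number of genes analysed in brackets. The macrophage and leukocyte genes are in red, the dotted lines mark 1 and -1, and the dashed line is the median of all genes. The 8 genes lie between 0.80 and 2.90 with a median of 1.48, the antigen presentation list has a median of 1.36, the skeletal muscle markers lie furthest right at a median of 5.41, and the neuron markers have a median of -0.74.

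The genes whose values over the 4 columns were most like those of CSF1R were sought by the Euclidean distance of the centred log2 values. These were LUM, the fibroblast proteoglycan lumican (distance 0.001), BCAS2, a splicing factor (0.014), ID1, an inhibitor of transcription factors (0.016), NUP160, a nuclear pore protein (0.017), and RHOU, a small GTPase (0.017). Of the macrophage and leukocyte genes, IRF8 was the nearest, with 703 genes nearer to CSF1R than it, followed by LAPTM5 with 1906. MPEG1 and CD74 were the farthest, with 13086 and 13537 genes nearer. With 1 sample per stage the distance measures little beyond the size of the change.

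CD74 and CSF1R are neighbours in the turtle genome, 352 kb apart on chromosome 8 with 6 annotated genes between them. SPI1 and CSF1 lie 59.5 Mb apart on chromosome 4, and IRF8 and IL34 lie 33.0 Mb apart on chromosome 13. None of the 8 genes overlaps another annotated gene, so no overlapping gene shares their reads.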

How the data were processed

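The authors aligned single-end reads to the CAS_Tse_1.0 assembly with HISAT2, counted them per gene with featureCounts, and filtered genes with low counts with edgeR 3.42.4. Whether strand was used in counting is not given in the sources used here. The deposited values are log2 TPM with a small prior count, which the authors added before the logarithm and which came to 1.23 and 1.18 reads at st.21 and 2.86 and 2.73 reads at st.19. It makes the changes of genes with few reads too small. Columns were matched to the stages by name, and no sample column was left out. Fold changes and p-values in the authors' table of differentially expressed genes were not used, only its gene lengths, which calibrated the recovery of whole reads.

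Whole reads were recovered by finding the length that turns the values of all 4 columns into whole reads, which succeeded for all 15289 genes (100%) and returned all 3626 known lengths. In a test on simulated data it recovered 100% of 1500 genes. Fold changes are the mean deposited log2 TPM at st.21 minus that at st.19, and a change above 1 or below -1 was counted, the fold threshold of the study. Intervals at 95% are exact binomial (Clopper-Pearson) for 2 libraries and conditional exact for ratios to CSF1R. Reads without molecular identifiers are not independent molecules, so intervals and floors cover counting error only. Depth ranged from 2129599 to 4353821 reads on genes.

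The genes and the 17 lists were chosen with earlier results of these data known. All 10 genes of the set are named where analysed. From each list up to 3 genes are named, those with the largest absolute change among genes with at least 20 reads in all, together with the 5 genes nearest to CSF1R. CASQ1, HEMGN, GFAP and some other genes the rule also picked are given within counts only, and 2 genes of the Schwann cell list are not reported here. Gene symbols, coordinates and overlaps come from RefSeq for that assembly, where 15266 symbols were found. Alternatives were 5 other scalings, log2(TPM + 1), no filter, at least 5 TPM, each column left out, and same-numbered columns alone. Values with no prior count were added after seeing the data. Promoter motifs were not analysed here. Computations ran in Python 3.11.15 (scipy 1.17.1, numpy 2.4.6, pandas 2.3.3), and plots were drawn with matplotlib 3.10.9.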

Additional observations from a re-analysis of the deposited data

How the results depend on the processing

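Most of the alternatives shift all genes of a column alike or leave out a column of a sample. A kept sign therefore says little of how stable a change is, and how many of all genes kept theirs was not counted. Under the protein-coding total and without rRNA genes the counting intervals of CSF1R, LAPTM5, IRF8 and IL34 included 0. All 8 macrophage and leukocyte genes kept a positive log2 fold change under every alternative that gave a value. The ranges were 2.33 to 3.15 for CD74, 2.01 to 3.31 for MPEG1, 1.57 to 2.74 for SPI1, 1.21 to 2.02 for CSF1, 0.62 to 1.38 for LAPTM5, 0.37 to 1.18 for CSF1R, 0.35 to 1.27 for IL34 and 0.23 to 1.04 for IRF8. The totals of protein-coding genes and without rRNA genes moved CD74 to 2.37 and 2.33 in place of 2.90, CSF1 to 1.25 and 1.21 in place of 1.78, and the median of the 8 genes to 0.96 and 0.92 in place of 1.48. Leaving out each column in turn left 5 to 8 genes above 1. All 8 were above 1 without st.19 replicate 1, when 3800 of all genes were above 1 and 920 below -1, and 5 were without st.19 replicate 2, when 1735 were above and 2393 below. With no prior count 5 of 7 genes were above 1, against 18.3% of all genes, IL34 among them at 1.02, and SPI1 gave no value. At a filter of 5 TPM 4 of 5 genes were above 1, against 16.7% of all genes. MPEG1 and LAPTM5, 2 of these 4, reached 5 TPM in the st.21 columns only. The share above 1 is thus partly set by the filter itself. The median of the antigen presentation list became -0.014 there in place of 1.36, with fewer genes analysed. No paired analysis was possible because replicate 1 and replicate 2 of a stage were taken as 1 sample and the comparison comes from no test. With same-numbered columns alone 5 genes were above 1 in replicate 1, against 11.5% of all genes, and 6 in replicate 2, against 24.9%. Among the lists, the number of genes above 1 without st.19 replicate 1 was 7 in place of 4 for the other pan-leukocyte genes, 6 in place of 3 for CSF1R signalling and 5 in place of 2 for the Schwann cell markers. Without st.19 replicate 2 it was 1 for CSF1R signalling, 1 for the Schwann cell markers, 2 in place of 4 for the other myeloid transcription factors, 2 in place of 4 for the osteoclast genes and 4 in place of 7 for the endothelial markers. With the protein-coding total it was 1 for CSF1R signalling, 1 for the myeloid transcription factors and 2 each for the lysosomal, osteoclast and endothelial lists, with 0 for the Schwann cell, thrombocyte and T and natural killer cell markers, and without rRNA genes it was 4 in place of 7 for antigen presentation.

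With 1 embryo per stage, a difference between embryos cannot be told apart from one between stages. The depth limits SPI1, IRF8, LAPTM5, IL34 and MPEG1, which held 20 reads or fewer in every column.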
